A study of Mus musculus with 28 samples.

Results

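A set of 38 genes of hypoxia signalling and glycolysis was read in sorted vascular cells of mouse brain, out of 53647 gene IDs in the count table. The genes were chosen by name, with earlier results of these data known. They were matched to the table through Ensembl IDs, and all 38 had a row. They comprise 2 transporters, 16 glycolytic enzymes, 3 regulators of glycolytic flux, 2 carbonic anhydrases, 3 subunits of hypoxia-inducible factor (HIF), 2 oxygen-sensing prolyl hydroxylases and 10 other genes known as HIF targets. The 28 libraries came from mice with the PDGFRβ-CreERT2 and Rosa-tdTomato alleles, all described as given 2 mg of tamoxifen a day for 5 days, so that cells with Pdgfrb promoter activity carry tdTomato. Brain metastases (BrM) were grown from PyMT-BrM3 breast or Sv2T3-BrM1 lung cancer cells injected into the heart, and each origin is therefore represented by a single cell line. After immune (CD45 or CD11B) and EPCAM-positive cells were gated out, a CD31 sort for endothelial cells and a PDGFRb sort, by tdTomato, for mural cells were taken. The CD31 sort gave 5 non-tumor, 5 breast BrM and 5 lung BrM libraries, and the PDGFRb sort gave 5 non-tumor, 4 breast BrM and 4 lung BrM libraries. The ages and sexes of the mice are not given in the sources used here, and 2 of the lung BrM labels (55169-70 and 56195-56520) hold a pair of numbers each and were counted as 1 sample each.

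Glycolysis splits glucose into pyruvate in a chain of enzymes, from hexokinase to pyruvate kinase, and lactate dehydrogenase then turns pyruvate into lactate, which leaves the cell through carriers such as SLC16A3. HIF alpha subunits are marked for destruction by the prolyl hydroxylases when oxygen is present, and in hypoxia they pair with ARNT and raise transcription of glycolytic enzymes, carbonic anhydrases, mitophagy genes and one of their own inhibitors, EGLN3. Brain endothelial cells are known for high EPAS1 (HIF-2 alpha) and for a reliance on glycolysis.

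The library totals were 7.11 to 23.9 M counts, and levels are given as CPM (TMM-scaled counts per M library counts, M standing for mega), listed from the lowest to the highest library. In the CD31 sort the sum of 10 endothelial markers was 22308 to 23466 CPM in non-tumor brain, 6954 to 14707 CPM in breast BrM and 10457 to 15505 CPM in lung BrM. The sum of 14 epithelial markers was 3.01 to 15.4 CPM in non-tumor brain, 189 to 3461 CPM in breast BrM and 132 to 2362 CPM in lung BrM, and 12 and 10 of the 13 tested markers rose. In the PDGFRb sort the epithelial sum was 25.1 to 124 CPM in non-tumor brain, 1358 to 4833 CPM in breast BrM and 6498 to 10711 CPM in lung BrM, where 13 of the 14 markers had counts and Esrp1 was at 0. The sum of 10 mural markers was 15326 to 38549.9 CPM in non-tumor, 6775 to 23534 CPM in breast BrM, 9531 CPM in the lung BrM library of mouse 51435 and 327 to 532 CPM in the other 3 lung BrM libraries, whose Pdgfrb level was 36.0 to 42.2 CPM. The PDGFRb breast BrM library of mouse 51950 stood apart with 9174 genes detected, against 17004 to 22752 in the other 12 PDGFRb libraries. Gapdh, Aldoa, Tpi1, Pgk1, Pgam1, Eno1 and Ldha have near-identical pseudogene copies, among which reads could be split. The title and the cell type label of mouse 54135 name opposite sorts. It was placed by its title, and the library so placed in the CD31 sort had Pecam1 at 1362 and Pdgfrb at 0.227 CPM. In such bulk libraries fewer cells of a type and less RNA per cell cannot be told apart.

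HIF binds a short core, ACGTG or GCGTG, and the 250 bases before the gene start are shown for a few members whose levels are followed below: 3 that rose in the CD31 sort of BrM (Pgk1, Egln3 and Car9) and 1 that fell there (Bnip3). Capitals mark ACGTG or GCGTG on either strand (CACGT or CACGC when read on this strand), and overlapping matches run together. Sequences are from RefSeq, build GRCm38.p6, written 5′ to 3′ on the strand of the gene: Pgk1 chrX:106186850-106187099, plus strand; Egln3 chr12:54203875-54204124, minus strand; Car9 chr4:43506776-43507025, plus strand; Bnip3 chr7:138909507-138909756, minus strand.
Pgk1: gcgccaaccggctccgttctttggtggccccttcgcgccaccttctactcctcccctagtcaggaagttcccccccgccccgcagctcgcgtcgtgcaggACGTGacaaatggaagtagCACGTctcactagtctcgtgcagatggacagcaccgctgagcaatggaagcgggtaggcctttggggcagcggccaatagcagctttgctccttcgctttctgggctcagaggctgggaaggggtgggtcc
Egln3: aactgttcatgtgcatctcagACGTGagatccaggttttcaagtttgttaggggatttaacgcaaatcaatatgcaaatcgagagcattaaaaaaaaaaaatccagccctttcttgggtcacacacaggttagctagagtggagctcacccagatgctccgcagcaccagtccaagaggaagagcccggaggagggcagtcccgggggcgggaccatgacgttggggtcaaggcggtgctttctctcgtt
Car9: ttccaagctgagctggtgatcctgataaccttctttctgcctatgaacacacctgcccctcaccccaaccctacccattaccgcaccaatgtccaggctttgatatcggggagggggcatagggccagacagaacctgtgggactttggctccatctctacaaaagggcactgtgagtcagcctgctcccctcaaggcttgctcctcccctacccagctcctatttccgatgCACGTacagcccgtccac
Bnip3: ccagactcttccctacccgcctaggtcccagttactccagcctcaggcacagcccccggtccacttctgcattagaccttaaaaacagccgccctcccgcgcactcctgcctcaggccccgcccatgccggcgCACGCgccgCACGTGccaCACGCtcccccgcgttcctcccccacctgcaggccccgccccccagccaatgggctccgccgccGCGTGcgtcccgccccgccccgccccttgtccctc

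Pgk1 held 2 such stretches, Egln3 and Car9 1 each, and Bnip3 4. A promoter was found in the table for 34 of the 38 members, with 51 start sites between them. The members without one were Slc2a3, Epas1, Bnip3l and Ndrg1. Windows of the same gene could overlap, such as those of Aldoa, Eno1 and Pfkm, and each was counted. Of those 51 windows 76.5% held ACGTG or GCGTG, against 38.6% of 32851 windows of all genes. ACGTG was in 45.1% against 16.6%, GCGTG in 49.0% against 28.2%, and both in 17.6% against 6.13%. The member windows were richer in G and C, with a median of 61.6% against 52.4%, and the part of base composition in the motif share was not tested. The 12 windows of the other HIF targets, from 8 genes, held a match in 75.0% of cases, and the 27 windows of glycolytic enzymes in 74.1%. Of the other HIF targets that fell in the CD31 sort, Bnip3l and Ndrg1 had no window. Mxi1 and Kdm3a, which also fell, had windows with and windows without a match.

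In the CD31 sort of breast BrM 17 of 37 tested members rose and 6 fell (adjusted p under 0.05, edgeR's quasi-likelihood test with Benjamini-Hochberg adjustment over all genes), where 30.1% of all 14876 genes tested were called (18.6% higher, 11.4% lower). The members that rose were 11 glycolytic enzymes, Slc16a3, Pdk1, Pfkfb3, Car9, Car12 and Egln3, and those that fell were Epas1 and 5 of the 10 other HIF targets. The members' median log2 change was 0.57, against 0.04 over all genes. In lung BrM 11 rose and 7 fell, against 34.8% of all genes called (20.4% higher, 14.5% lower), with a median of 0.26 against a median of all genes that rounds to 0. The breast and lung comparisons share the same 5 non-tumor libraries. Eno2, a neuronal enolase, was too low to be tested in this sort.

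**Figure D1:**
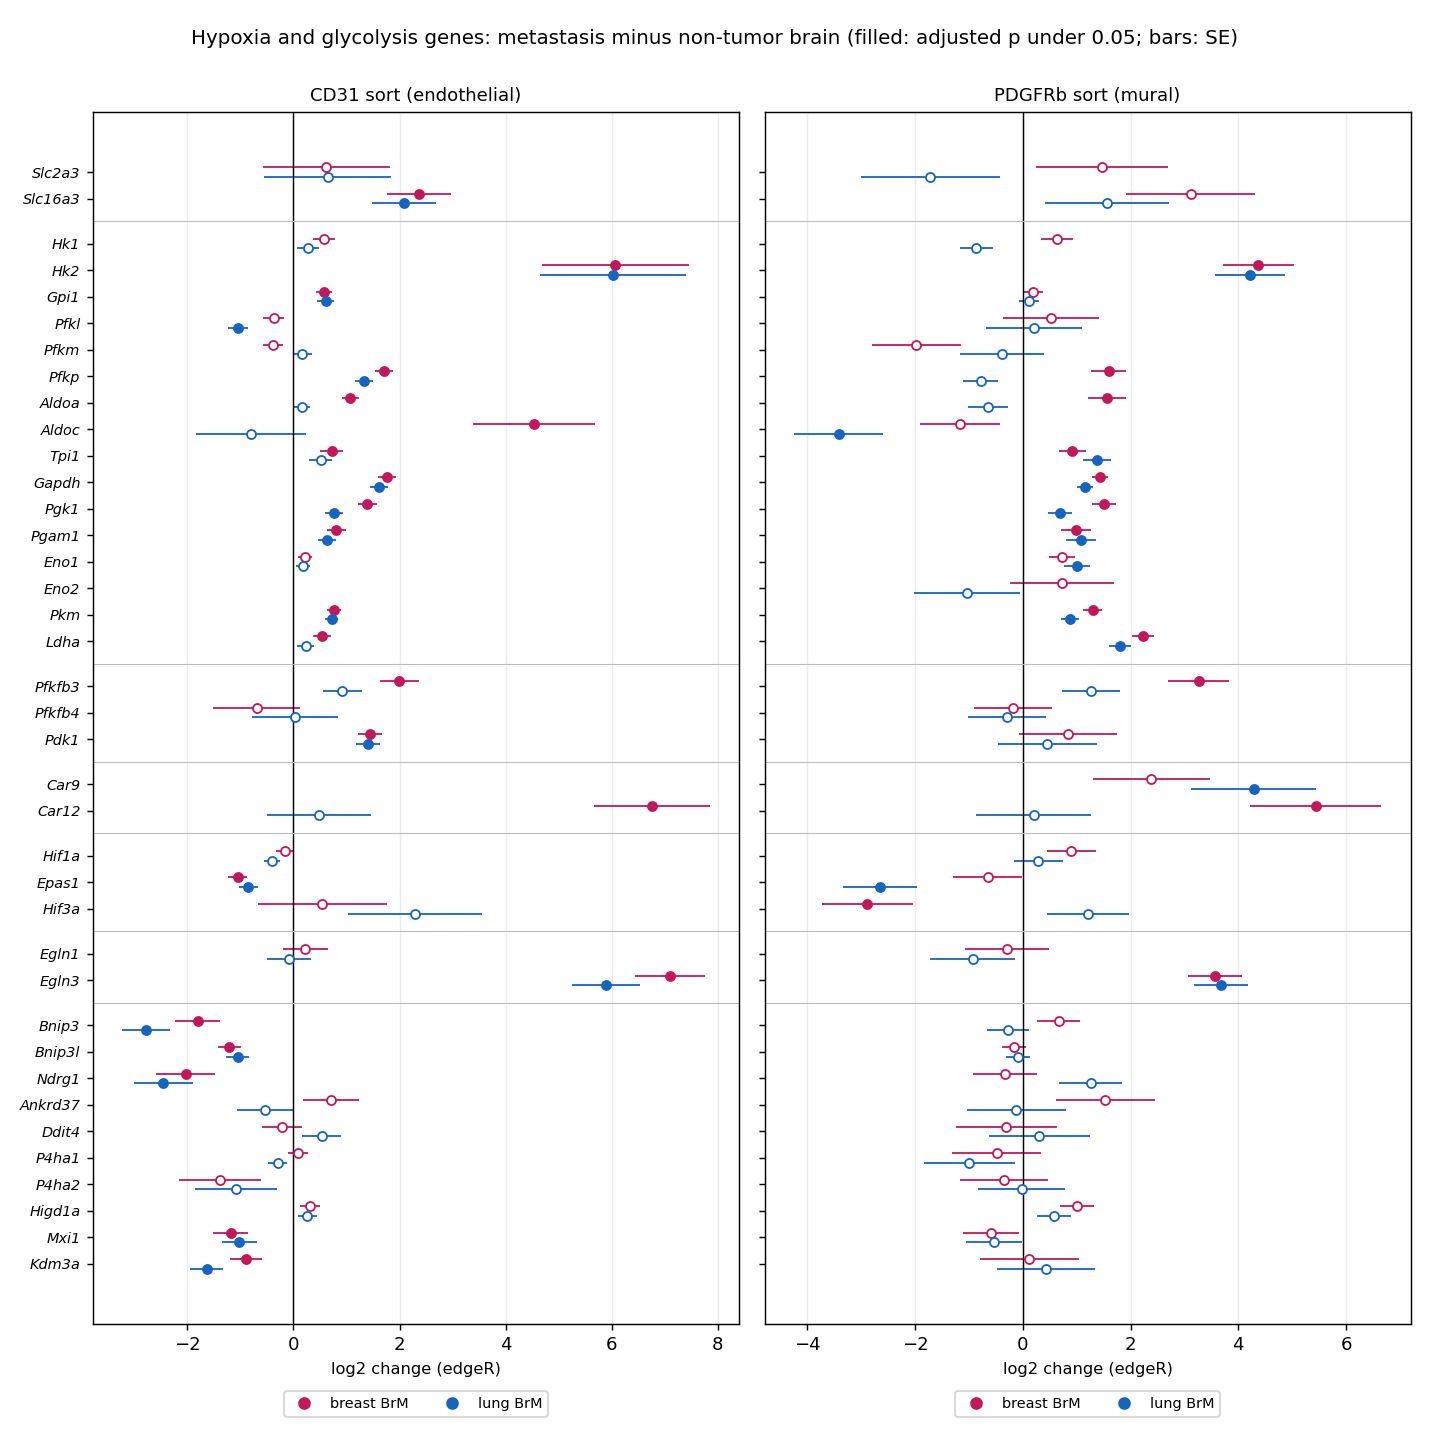
Log2 change (x axis, edgeR) of each member (y axis, grouped as in the text) in breast and lung BrM against non-tumor brain, in the CD31 sort (left) and the PDGFRb sort (right). Points are fitted changes, bars are SE, and filled points passed adjusted p under 0.05. Filled points right of 0 include 11 and 7 enzymes on the left and 9 and 8 on the right, while Bnip3, Bnip3l, Ndrg1, Mxi1 and Kdm3a are filled left of 0 in the CD31 panel and open in the other. Car9 is not drawn for the CD31 sort, because every non-tumor count there was 0.

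Of the 2 transporters, Slc16a3, the monocarboxylate carrier that exports lactate, was at 2.21, 3.63, 4.09, 4.29 and 4.79 CPM in the 5 CD31 non-tumor libraries. It reached 4.06, 7.58, 8.80, 14.8 and 61.9 CPM in breast BrM and 9.37, 11.1, 17.7, 19.3 and 19.8 CPM in lung BrM. All lung libraries exceeded the non-tumor ones, while 1 breast library lay within their range. Slc16a3 rose in both origins (log2 change 2.37, SE 0.61, adjusted p = 0.00697 in breast; log2 change 2.09, SE 0.60, adjusted p = 0.0129 in lung, edgeR). Slc2a3 (GLUT3), a high-affinity glucose transporter of neurons, stayed at or under 1.88 CPM in all 15 CD31 libraries and was not called. Slc2a1 (GLUT1), the barrier's main glucose transporter and not a member, fell in both (log2 change -1.44, adjusted p = 0.00957 in breast; -1.22, adjusted p = 0.0216 in lung). So did the endothelial marker sum, whose part in the Slc2a1 level was not tested.

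Of the 15 glycolytic enzymes tested in the CD31 sort, 11 rose and none fell in breast BrM, and 7 rose and 1 fell in lung BrM. Gapdh, which makes NADH at the midpoint of the chain, was at 720.3, 736, 756, 826 and 876 CPM in non-tumor brain, 2268, 2272, 2564, 2754 and 3188 CPM in breast BrM and 1849.9, 1913, 2103, 2674 and 2898 CPM in lung BrM. Every metastasis library lay above every non-tumor one, and Gapdh rose by a log2 change of 1.77 in breast (adjusted p = 1e-06) and 1.61 in lung (adjusted p = 2.49e-06, edgeR). The other called enzymes in both origins were Hk2, Gpi1, Pfkp, Pgk1, Pgam1 and Pkm, with log2 changes between 0.58 (Gpi1) and 6.07 (Hk2) in breast and between 0.61 and 6.03 in lung. Aldoa, Aldoc, Tpi1 and Ldha passed the test in breast BrM. In lung BrM Tpi1 and Ldha had log2 changes of 0.51 and 0.23 (adjusted p = 0.0803 and 0.288). Tpi1 lost its call in breast without mouse 53072. The difference between the origins was itself called for Aldoa and Aldoc and not for Tpi1 or Ldha.

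Phosphofructokinase, the committed step, has liver (Pfkl), muscle (Pfkm) and platelet (Pfkp) forms. Pfkp rose from 56.9, 62.9, 64.9, 65.8 and 82.9 CPM to 177, 188, 204, 241 and 254 CPM in breast BrM and 128, 129.6, 140.2, 189 and 219 CPM in lung BrM (log2 change 1.71, SE 0.17, adjusted p = 1.93e-06 in breast; log2 change 1.33, SE 0.17, adjusted p = 2.17e-05 in lung). Pfkl was at 195, 233, 281, 304 and 317 CPM in non-tumor brain and at 88.9, 98.5, 120.2, 153 and 162 CPM in lung BrM, without overlap, and fell (log2 change -1.04, SE 0.19, adjusted p = 0.000623). In breast BrM Pfkl had a log2 change of -0.37 (adjusted p = 0.161). The endothelial marker sum was also lower in BrM, and its part in the Pfkl level was not tested. Compared per length within each library, the ratio of Pfkp to Pfkl FPKM (fragments per kilobase of transcript, scaled to depth) was 0.222 to 0.331, median 0.280 in non-tumor brain, 0.970 to 1.47, median 1.24 in breast BrM and 1.27 to 1.68, median 1.54 in lung BrM. In non-tumor endothelium Pfkl was thus the higher form in all 5 libraries, and Pfkp was the higher form in 9 of the 10 BrM libraries.

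Hexokinase 2, the inducible form of the first enzyme, was at 0, 0, 0, 0.187 and 0.341 CPM in the CD31 non-tumor libraries. It was at 1.14, 1.53, 2.14, 14.2 and 16.9 CPM in breast BrM and 0.621, 1.81, 2.29, 8.30 and 21.4 CPM in lung BrM, above the non-tumor range in every case. Hk1, the main hexokinase of brain, was at 24.0 ± 9.15 FPKM (SD) in non-tumor brain against 0.0380 ± 0.0694 FPKM for Hk2. In BrM Hk1 remained the higher form in 9 of 10 libraries, with Hk2 to Hk1 ratios of 0.0111 to 0.269, median 0.0600 in breast and 0.00350 to 1.07, median 0.0803 in lung. The 2 highest breast and the 2 highest lung libraries by Hk2 were also the 2 highest of their group by the epithelial sum, and the part of those markers in the Hk2 level was not tested.

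Aldolase C, a brain form of aldolase, was at 2.21, 3.41, 3.44, 8.07 and 14.9 CPM in CD31 non-tumor libraries and at 14.9, 36.2, 58.1, 219 and 384 CPM in breast BrM. The lowest breast library lay at the top of the non-tumor range, and Aldoc rose (log2 change 4.54, SE 1.14, adjusted p = 0.00641). If mouse 54135 is placed by its label, the log2 change of Aldoc is -1.12 (adjusted p = 0.695). The same 5 breast libraries had epithelial sums of 189, 391, 360, 1350.0 and 3461 CPM in the order of their Aldoc level, so that the lowest and the 2 highest Aldoc libraries were also those of the epithelial sum, and the part of epithelial RNA was not tested. In lung BrM Aldoc was at 0, 0.0785, 1.81, 2.00 and 13.4 CPM and was not called. Aldoa, the main form, rose from 801, 810.4, 811, 849 and 964 CPM to 1458, 1507, 1534, 1963 and 2227 CPM in breast BrM (log2 change 1.07, SE 0.15, adjusted p = 6.38e-05) and was at 773, 885, 915, 933 and 1045 CPM in lung BrM.

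**Figure D2:**
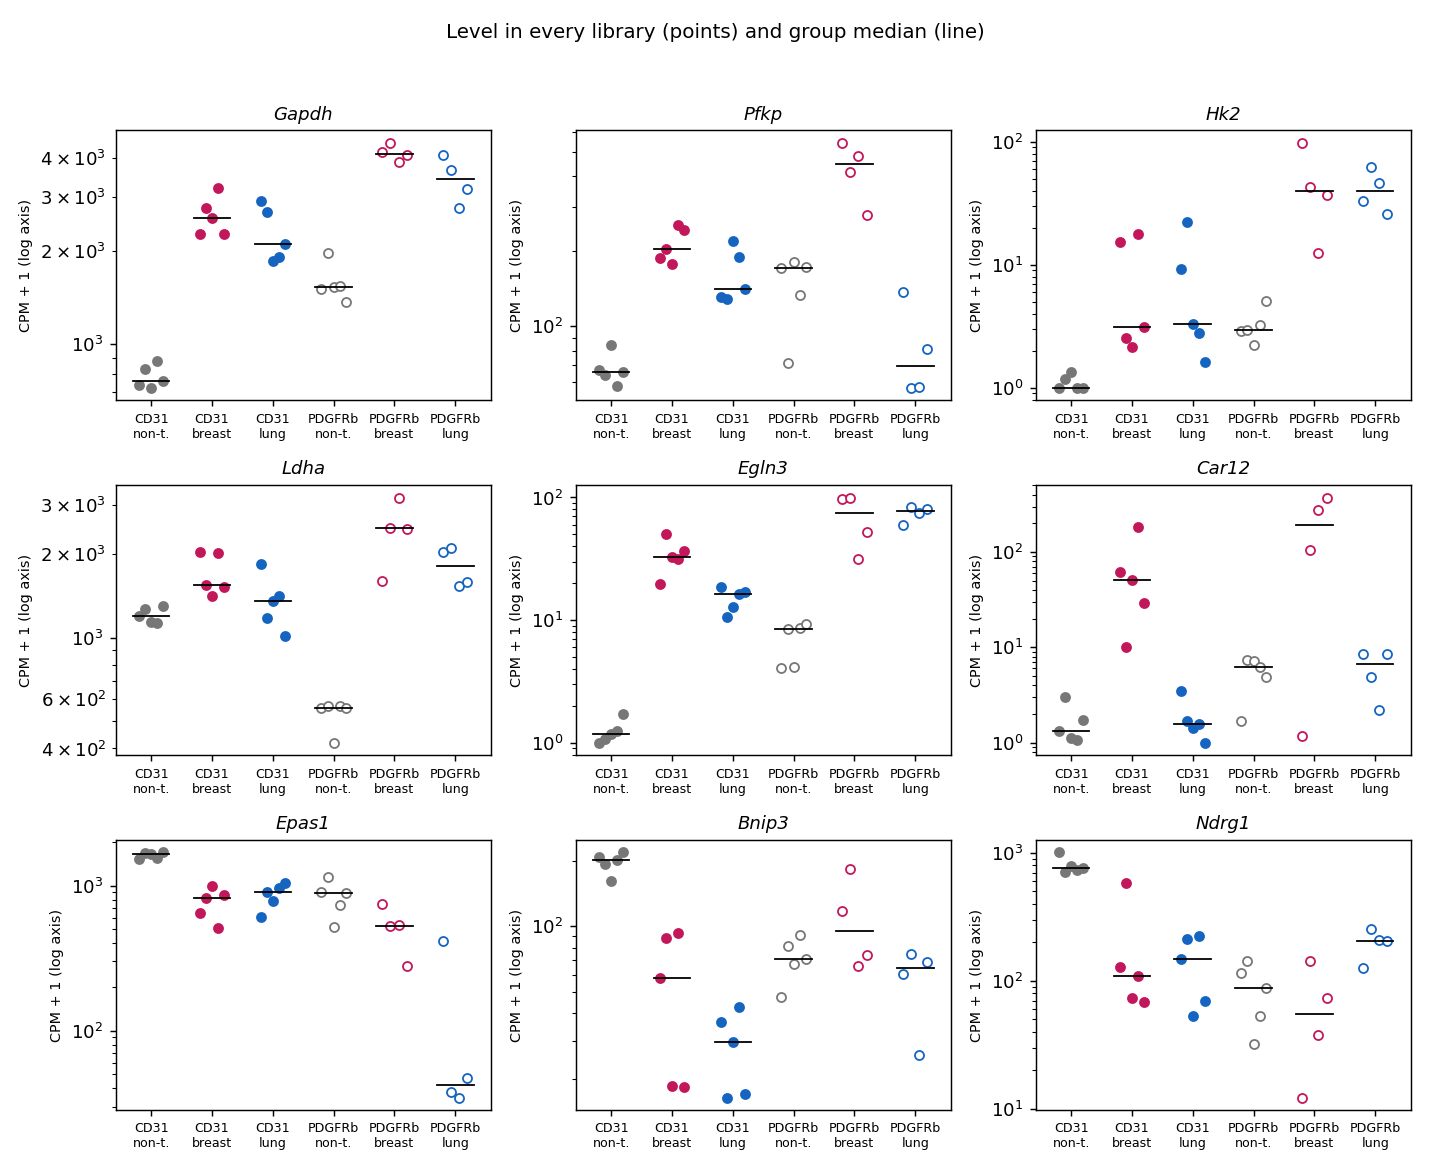
Level of 9 members (y axis, CPM + 1, log axis) in each of the 28 libraries by group (x axis). Points are libraries and lines are group medians. Gapdh and Egln3 separate BrM from non-tumor libraries in both sorts, Bnip3 and Ndrg1 lie below the non-tumor range in every CD31 BrM library, and Epas1 is at 33.6 to 46.0 CPM in 3 of the 4 PDGFRb lung BrM libraries.

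Of the 3 regulators of flux, Pdk1, the kinase that shuts off pyruvate dehydrogenase, was at 15.5, 16.5, 19.3, 22.3 and 25.9 CPM in non-tumor CD31 libraries. It was at 40.4, 50.4, 51.7, 55.6 and 67.0 CPM in breast BrM and 30.1, 43.7, 54.2, 60.5 and 64.4 CPM in lung BrM, with no overlap, and rose in both (log2 change 1.45, adjusted p = 0.000136, and 1.41, adjusted p = 0.000165). Pfkfb3, which makes the activator of phosphofructokinase, rose in breast BrM (log2 change 2.00, SE 0.37, adjusted p = 0.000617) and had a log2 change of 0.92 in lung (adjusted p = 0.0561). Pfkfb4 was not called in either.

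Carbonic anhydrase 9, a surface enzyme and a textbook HIF target, had 0 counts in all 5 CD31 non-tumor libraries. It was at 1.04, 2.21, 2.35, 4.22 and 6.53 CPM in breast BrM and 1.95, 3.11, 3.43, 6.67 and 18.6 CPM in lung BrM. Against a floor of 3 counts over the non-tumor group Car9 was at least 99.8-fold higher in breast and at least 201-fold higher in lung BrM, and it was called in both. Of the 520 lung counts 300 were in the library of mice 56195-56520, without which the bound was 107-fold. Carbonic anhydrase 12 was at 0.0583, 0.114, 0.323, 0.715 and 1.99 CPM in non-tumor brain and 9.08, 28.2, 49.8, 60.4 and 182 CPM in breast BrM, where it rose (log2 change 6.75, SE 1.09, adjusted p = 0.000196). In lung BrM it was at 0, 0.429, 0.566, 0.706 and 2.50 CPM and was not called. The 5 breast libraries ranked in the same order by Car12 and by the epithelial sum. The part of epithelial RNA was not tested.

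Among the HIF subunits, Hif1a was at 119, 136, 143, 148 and 149 CPM in CD31 non-tumor libraries, 85.5, 114, 132, 135 and 141 CPM in breast BrM and 79.9, 80.6, 104, 109 and 132 CPM in lung BrM. The ranges overlapped in both, and Hif1a was not called by edgeR (adjusted p = 0.476 and 0.0578), while DESeq2 called it in lung. Epas1 (HIF-2 alpha) was at 1534, 1538, 1645, 1669 and 1689 CPM in non-tumor brain, 509, 650.3, 816, 861 and 991 CPM in breast BrM and 611, 778, 896, 956 and 1046 CPM in lung BrM. It fell in both without overlap (log2 change -1.05, SE 0.18, adjusted p = 0.000288 in breast; log2 change -0.85, SE 0.18, adjusted p = 0.00143 in lung). The endothelial marker sum was also lower in these libraries, and its part in the Epas1 level was not tested. Hif3a, which encodes a regulator of the other subunits, was at 0, 0.498, 0.795, 1.38 and 3.23 CPM in non-tumor brain, 0, 0.973, 0.992, 2.21 and 4.34 CPM in breast BrM and 0.0716, 2.21, 3.45, 5.86 and 15.7 CPM in lung BrM, overlapped and was not called.

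Of the oxygen-sensing prolyl hydroxylases, Egln3 (PHD3) was low in non-tumor endothelium, at 0, 0.0622, 0.170, 0.233 and 0.715 CPM. It was at 18.7, 30.6, 31.8, 35.4 and 49.4 CPM in breast BrM and 9.50, 11.8, 15.4, 15.8 and 17.4 CPM in lung BrM. Every BrM library lay above every non-tumor one, and Egln3 rose in both (log2 change 7.10, SE 0.67, adjusted p = 8.62e-07 in breast; log2 change 5.89, SE 0.64, adjusted p = 3.63e-06 in lung). The highest breast value, 49.4 CPM, was in the library of mouse 52599, which had the lowest epithelial sum of the breast group (189 CPM). The highest lung value, 17.4 CPM, was in the library of mouse 51435, which had the highest epithelial sum of the lung group (2362 CPM). The part of epithelial RNA in the Egln3 level was not tested. Egln1 (PHD2), the main oxygen sensor, was at 36.7, 47.7, 49.4, 50.1 and 50.5 CPM in non-tumor brain and between 9.31 and 98.6 CPM in BrM, overlapped and was not called. The ratio of Egln3 to Egln1 FPKM was 0 to 0.0194, median 0.00647 in non-tumor brain, 0.695 to 1.44, median 0.713 in breast and 0.151 to 2.36, median 0.470 in lung BrM.

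Among the 10 other HIF targets none rose in the CD31 sort and 5 fell in each origin, namely Bnip3 and Bnip3l (mitophagy receptors), Ndrg1 (a stress-response gene), Mxi1 (a MYC antagonist) and Kdm3a (a histone demethylase). Bnip3 was at 161, 193, 201, 207 and 217 CPM in non-tumor brain, 17.4, 17.7, 57.3, 87.9 and 92.0 CPM in breast BrM and 15.5, 16.1, 28.6, 35.6 and 41.8 CPM in lung BrM. No BrM library reached the non-tumor range, and Bnip3 fell (log2 change -1.80, SE 0.43, adjusted p = 0.00429 in breast; log2 change -2.78, SE 0.45, adjusted p = 0.000169 in lung). Ndrg1 was at 702, 738, 757, 787 and 1005 CPM in non-tumor brain, 67.9, 72.1, 109, 127 and 583 CPM in breast BrM and 52.6, 68.2, 147, 210.4 and 222 CPM in lung BrM. The breast library of mouse 52599 was the nearest to the non-tumor range, and the groups did not overlap (log2 change -2.03, adjusted p = 0.00996, and -2.45, adjusted p = 0.00288). Bnip3l, Mxi1 and Kdm3a had log2 changes of -1.21, -1.18 and -0.89 in breast and -1.05, -1.02 and -1.64 in lung. In the same libraries the mean endothelial marker sum was 22578 CPM in non-tumor brain, 11485 CPM in breast BrM and 12864 CPM in lung BrM. Its part in the fall of these 5 targets was not tested. The call of Kdm3a in breast was lost without any 1 of 7 libraries (non-tumor 53680, 54135 and 56740, breast 51950, 52599, 52865 and 53142) and that of Mxi1 in lung without any 1 of 5 (non-tumor 54132, 56727 and 56740, lung 51435 and 55169-70). Ankrd37, Ddit4, P4ha1, P4ha2 and Higd1a were not called, with log2 changes from -1.39 to 0.71 in breast and from -1.08 to 0.53 in lung.

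Other genes of the pathway were read from a list of 26 further HIF targets. Of these 13 rose and 2 fell in breast BrM and 12 rose and 3 fell in lung BrM, which is 57.7% in each, against the 30.1% and 34.8% of all genes. The list, like the members, was chosen with earlier results of these data known. Its shares, here and in the PDGFRb sort below, are therefore descriptive and not independent support. Stc2, a secreted stanniocalcin, had log2 changes of 6.06 and 6.25, and Vldlr 5.65 and 4.75 in breast and lung, all called. Vegfa, the main angiogenic HIF target, rose in both (3.30 and 3.12), and Adm (adrenomedullin) rose in breast (1.34) and had a log2 change of 0.88 in lung (adjusted p = 0.0679). Of 16 tested genes of further glucose and lactate metabolism 3 rose and 2 fell in each origin, and of 8 tested genes of the HIF machinery none rose and 3 fell in breast BrM, and 1 rose and 2 fell in lung BrM. Those shares, 5 of 16 and 3 of 8, lie near the background of all genes called.

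The CD31 results were set beside the markers that moved with them. Without the 2 breast and 3 lung libraries above 500 CPM of epithelial markers, an alternative added after the data were seen that leaves 3 breast and 2 lung libraries, 23 members were called in breast (Ndrg1 and Ldha lost, Pfkl and Ankrd37 gained) and 14 in lung BrM (Hk2, Ndrg1, Pgam1 and Slc16a3 lost), where 30.8% and 28.3% of all 15953 genes tested were called. All 6 cycling markers rose in both origins. With the date in the column names as a covariate 14 breast and 8 lung members were called, where 15.4% and 9.8% of all genes tested were called. In breast Hk2, Aldoc, Tpi1, Mxi1, Slc16a3, Gpi1, Kdm3a, Ldha and Bnip3 lost the call, and in lung Hk2, Pgam1, Pfkl, Bnip3l, Epas1, Mxi1, Slc16a3, Pkm, Kdm3a and Pgk1 did. In the 2 dates that held both breast BrM and non-tumor libraries, and in the 1 that held lung BrM with non-tumor libraries, every called member had the direction of the fit, which those libraries had also entered.

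**Figure D3:**
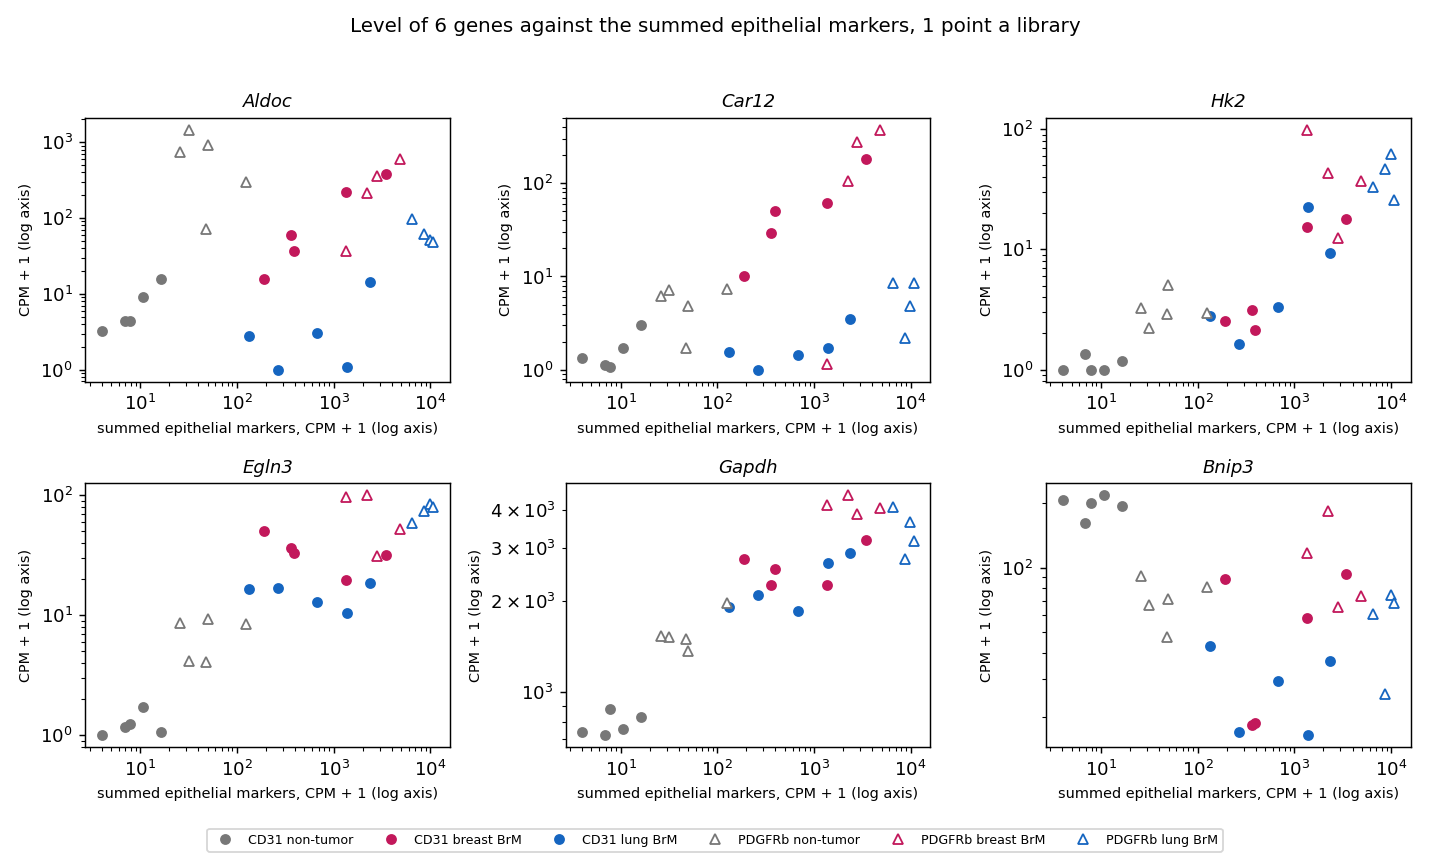
Level of 6 members (y axis, CPM + 1) against the sum of 14 epithelial markers (x axis, CPM + 1), both on log axes, 1 point per library. Among the 5 CD31 breast libraries Aldoc, Car12 and Hk2 are highest in the 2 with the largest sums, 1350.0 and 3461 CPM. Egln3 is highest in the CD31 breast library with the lowest sum, 189 CPM, and in the CD31 lung library with the largest sum, 2362 CPM.

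Lung and breast BrM were then compared directly in the CD31 sort. Of 37 members 3 were called, all lower in lung, where 2.13% of all genes were called (0.578% higher, 1.55% lower). Car12 was lower (log2 difference -6.27, SE 1.07, adjusted p = 0.00423), as were Aldoc (log2 difference -5.34, SE 1.20, adjusted p = 0.0262) and Aldoa (log2 difference -0.91, SE 0.15, adjusted p = 0.00423), and none of the 3 overlapped between the origins. Hif1a, Epas1 and Hif3a had log2 differences of -0.24, 0.20 and 1.74 and were not called. With date as a covariate none of the 3 was called, and 0 genes in all were. No date held both origins, so that fit links them through the non-tumor libraries of shared dates. DESeq2 called 6 members, where 5.86% of all genes tested were called. Aldoc lost its call without breast mouse 53072 or without lung mice 55169-70.

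In the PDGFRb sort of breast BrM 12 of 38 members rose and 1 fell, where 8.99% of all 17028 genes tested were called (6.30% higher, 2.69% lower), and the members' median log2 change was 0.78 against -0.16 over all genes. Of the members 9 glycolytic enzymes, Pfkfb3, Car12 and Egln3 rose, Hif3a fell, and none of the 10 other HIF targets was called. In lung BrM 10 rose and 2 fell, against 17.5% of all genes (9.91% higher, 7.58% lower), with a median of 0.25 against -0.03. There 8 glycolytic enzymes, Car9 and Egln3 rose, and Aldoc and Epas1 fell. The 2 comparisons share the 5 non-tumor libraries. Every PDGFRb BrM library had an epithelial sum above every non-tumor one, and the part of epithelial RNA in these calls was not tested.

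Lactate dehydrogenase A, which makes lactate from pyruvate, was at 419, 556, 558, 567 and 567 CPM in PDGFRb non-tumor libraries. It was at 1598, 2463, 2477 and 3184 CPM in breast BrM and 1533, 1578, 2025 and 2096 CPM in lung BrM, and every BrM library lay above every non-tumor one. Ldha rose in both (log2 change 2.23, SE 0.20, adjusted p = 5.64e-05 in breast; log2 change 1.81, SE 0.20, adjusted p = 6.38e-05 in lung). Hk2 was at 1.22, 1.90, 1.95, 2.25 and 4.06 CPM in non-tumor brain, 11.5, 35.9, 41.9 and 97.3 CPM in breast BrM and 24.9, 32.0, 45.6 and 61.1 CPM in lung BrM, without overlap, and rose (log2 change 4.37, SE 0.65, adjusted p = 0.00142 in breast; log2 change 4.22, SE 0.65, adjusted p = 0.000763 in lung). The ratio of Hk2 to Hk1 FPKM was 0.0141 to 0.127, median 0.0399 in non-tumor brain, 0.239 to 1.70, median 0.785 in breast and 0.966 to 4.76, median 2.09 in lung BrM. The highest breast values, 97.3 CPM of Hk2 and a ratio of 1.70, came from mouse 51950.

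Gapdh, Pgk1, Pgam1, Tpi1, Pkm and Ldha rose in both origins of the PDGFRb sort, beside Hk2, with log2 changes of 0.92 to 2.23 in breast and 0.69 to 1.81 in lung. Without any 1 of 8 of the 9 libraries (all but breast 51950) Tpi1 and Pgam1 lost the call in breast, as Pgk1 did in lung without any 1 of the 9. Pfkp and Aldoa rose in breast (1.60 and 1.56; Aldoa lost its call without non-tumor 54135 or breast 52865) and Eno1 rose in lung (1.01). Eno1 had a log2 change of 0.73 in breast (adjusted p = 0.0757). Pfkfb3 was at 6.63, 12.0, 13.7, 17.5 and 23.0 CPM in non-tumor brain and 50.1, 78.9, 98.8 and 326 CPM in breast BrM, without overlap, and rose (log2 change 3.27, SE 0.56, adjusted p = 0.00347). In lung BrM it was at 20.3, 30.0, 35.5 and 49.4 CPM and was not called. The breast value of 326 CPM came from mouse 51950, the library with few genes detected.

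Aldoc fell in lung BrM of the PDGFRb sort, from 69.8, 298, 738, 919 and 1449 CPM to 47.9, 50.4, 60.0 and 94.7 CPM (log2 change -3.42, SE 0.83, adjusted p = 0.012), with 1 non-tumor library inside the lung range. The non-tumor libraries ranked in the same order by Aldoc and by the sum of 6 astrocyte markers, which ran from 187 to 2119.6 CPM, and that sum was 77.0 to 238 CPM in lung BrM. The part of astrocyte RNA was not tested. Car12 was at 0.695, 3.86, 5.21, 6.17 and 6.43 CPM in non-tumor brain, 0.166, 104, 278 and 372 CPM in breast BrM and 1.21, 3.84, 7.50 and 7.53 CPM in lung BrM. It rose in breast (log2 change 5.44, SE 1.22, adjusted p = 0.0147), although the library of mouse 51950 was below the non-tumor range at 0.166 CPM. Car9 was at 0.0901, 0.199, 0.316, 0.720 and 0.839 CPM in non-tumor brain and 2.61, 2.81, 6.12 and 21.3 CPM in lung BrM, where it rose (log2 change 4.28, SE 1.16, adjusted p = 0.021) and lost the call without non-tumor 53680, 54135 or 56740 or lung 54957.

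Egln3 was at 3.10, 3.15, 7.41, 7.69 and 8.31 CPM in PDGFRb non-tumor libraries, 30.4, 51.5, 95.5 and 98.8 CPM in breast BrM and 58.1, 73.3, 79.3 and 83.4 CPM in lung BrM. The groups did not overlap, and Egln3 rose in both (log2 change 3.57, SE 0.49, adjusted p = 0.000804 in breast; log2 change 3.68, SE 0.50, adjusted p = 0.000272 in lung). Hif1a was at 58.7, 65.9, 75.0, 113 and 131 CPM in non-tumor brain, 58.2, 82.2, 132 and 379.5 CPM in breast BrM and 95.0, 95.3, 106 and 121 CPM in lung BrM, overlapped and was not called. The breast values of 379.5 CPM for Hif1a and 95.5 CPM for Egln3 came from mouse 51950.

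Epas1 was at 514, 737, 883, 908 and 1136 CPM in PDGFRb non-tumor libraries, 276, 526, 532 and 746 CPM in breast BrM and 33.6, 36.7, 46.0 and 417 CPM in lung BrM. It fell in lung (log2 change -2.66, SE 0.69, adjusted p = 0.017) and was not called in breast (log2 change -0.66, adjusted p = 0.586). The lung library at 417 CPM was that of mouse 51435, the only 1 of the 4 with a mural marker sum above 1000 CPM. The part of mural markers was not tested, and the call was lost without lung mice 56195-56520. Hif3a was at 5.70, 10.7, 15.5, 25.2 and 34.4 CPM in non-tumor brain, 0.166, 1.36, 3.24 and 4.58 CPM in breast BrM, without overlap, and 20.2, 26.9, 44.3 and 70.8 CPM in lung BrM. It fell in breast (log2 change -2.89, SE 0.85, adjusted p = 0.0474; lost without any 1 of the 9 libraries but breast 51950) and was not called in lung (1.21). The ratio of Epas1 to Hif1a FPKM was 4.40 to 14.0, median 5.97 in non-tumor, 1.65 to 7.43, median 2.81 in breast and 0.236 to 3.37, median 0.277 in lung BrM.

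None of the 10 other HIF targets passed the test in either PDGFRb comparison (edgeR), and their median log2 changes were -0.24 in breast and -0.06 in lung. At an unadjusted p under 0.05 there was 1 in each, Higd1a in breast (1.01) and Ndrg1 in lung (1.26), and DESeq2 called 0 in each. Of the 26 further HIF targets 5 (19.2%) rose in breast BrM, where 8.99% of all genes were called, with Loxl2 (a collagen cross-linking oxidase), Hmox1 (heme oxygenase) and Bhlhe40 at log2 changes of 4.84, 3.56 and 2.84. In lung BrM 4 rose and 2 fell (23.1%), against 17.5% of all genes. Of 21 tested genes of further glucose and lactate metabolism 1 fell in breast BrM, and 4 rose and 4 fell in lung BrM, where the lactate carrier Slc16a1 had a log2 change of 4.14 and the lactate dehydrogenase subunit Ldhb one of -3.75. Vegfa rose in lung BrM (2.06, adjusted p = 0.0312), and Slc2a1 and Adm were not called in this sort.

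The breast result was read again without mouse 51950, in which 14 members detected in every other PDGFRb library had 0 to 3 counts. They were Slc2a3, Slc16a3, Pfkl, Pfkm, Pdk1, Car9, Car12, Hif3a, Egln1, Ankrd37, Ddit4, P4ha1, P4ha2 and Kdm3a, so that Hif3a, the member that fell, and 5 of the 6 members gained below are among them. Then 17 members rose and 2 fell, and 3289 genes in all were called instead of 1531, with the median change of all genes shifted by 0.34. The members gained were Slc16a3 (log2 change 3.48, adjusted p = 0.0133), Car9 (2.76), Ankrd37 (1.90), Pdk1 (1.22) and Eno1 (0.94), which rose, and Pfkm (-1.60), which fell. The lung result was read again with mouse 51435 as the only lung library, assuming that it varies as the other groups do. Gapdh and Ldha alone were then called. Hk2 had a log2 change of 3.77 (adjusted p = 0.13), Egln3 of 3.25 (adjusted p = 0.115) and Epas1 of -1.04 (adjusted p = 0.56, edgeR). With date as a covariate 3 members were called in each origin, where 0.675% (breast) and 3.39% (lung) of all genes tested were called.

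Between the origins in the PDGFRb sort 5 members were called, where 5.47% of all genes were (3.08% higher, 2.39% lower). Hif3a was higher in lung (log2 difference 4.10, SE 0.91, adjusted p = 0.0201), and Car12 (log2 difference -5.24, SE 1.33, adjusted p = 0.0346), Pfkp (log2 difference -2.38, SE 0.36, adjusted p = 0.00213), Aldoa (log2 difference -2.21, SE 0.40, adjusted p = 0.00628) and Hk1 (log2 difference -1.50, SE 0.32, adjusted p = 0.0164) were lower. For Hif3a, Hk1, Pfkp and Aldoa the origins did not overlap, and for Car12 they did. Hif3a lost its call without breast 52599 or 53072 or lung 55169-70 or 56195-56520, Car12 without any of 6 libraries (all but breast 51950 and lung 51435) and Hk1 without lung 54957, 55169-70 or 56195-56520. Without mouse 51950 9 were called, where 14.9% of all genes tested were. Those added were Slc2a3 (-3.56), Aldoc (-2.65), Ankrd37 (-2.07) and Pgk1 (-0.94), all lower in lung. With mouse 51435 as the only lung library none was called.

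The sorts were compared in non-tumor brain, where both sorts carry the same 5 mouse numbers. There 27.9% of all 18548 genes were called (17.4% higher in PDGFRb, 10.5% lower), and 15 of the 38 members were, 10 of them higher in PDGFRb and 5 lower. Slc2a3 was at 0.175, 0.187, 0.377, 0.624 and 0.767 CPM in CD31 and 33.4, 35.7, 35.9, 38.8 and 45.2 CPM in PDGFRb libraries, a difference without overlap (log2 difference 6.44, SE 1.40, adjusted p = 0.000856). Slc2a1 went the other way (log2 difference -5.85). Aldoc was higher in PDGFRb (log2 difference 6.76, SE 1.20, adjusted p = 9.15e-05), as were Egln3 (log2 difference 4.59, SE 0.60, adjusted p = 1.36e-06) and Hk2 (log2 difference 4.37, SE 1.08, adjusted p = 0.00269), with the library values given above and no overlap. Hif3a, Gapdh, Pfkp and Aldoa were also higher, with log2 differences of 3.94, 1.01, 1.12 and 0.92. Car9 was at least 12.7-fold higher against the floor of 3 counts over the CD31 group, and the ratio of Eno2, with 786 against 2 counts, was 332 (95% counting interval 91.7 to 2749). The astrocyte sum was 105 to 186 CPM in CD31 and 187 to 2119.6 CPM in PDGFRb libraries, and its part in Aldoc was not tested. The sum of 8 neuron markers was 51.4 to 88.2 CPM in CD31 and 2.47 to 922 CPM in PDGFRb libraries, and 4 of the 7 tested were called, all higher in PDGFRb. Within the PDGFRb non-tumor libraries Slc2a3 ranked in the reverse order of that sum. It was at 45.2 CPM in mouse 54132, where the neuron sum was 2.47 CPM, and at 33.4 CPM in mouse 54135, where the sum was 922 CPM. Eno2 had its most counts (203) in mouse 54132 and its fewest (107) in mouse 54135. The part of neuron RNA in Slc2a3 and Eno2 was not tested.

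Members lower in the PDGFRb sort were Ndrg1 (-3.22), Ankrd37 (-2.88), Bnip3l (-1.64), Bnip3 (-1.47) and Ldha (-1.18), the first 4 of them from the list of other HIF targets. Epas1 had a log2 difference of -0.95 (adjusted p = 0.133) and Hif1a of -0.65 (adjusted p = 0.165), and neither was called. With the mouse as a replicate block 15 members were called, where 20.9% of all genes tested were. If mouse 54135 went by the cell type label, which puts the library with Pecam1 at 1362 CPM into the PDGFRb group, no member and no gene was called. Members were also ranked by FPKM within each sort (mean ± SD, n = 5). The highest in the CD31 non-tumor libraries were Ldha at 870.2 ± 64.0, Gapdh at 702 ± 57.8 and Aldoa at 676 ± 58.5. The highest in the PDGFRb non-tumor libraries were Gapdh at 1674 ± 191, Aldoa at 1503 ± 221 and Aldoc at 544 ± 457. These PDGFRb libraries ranked in the same order by Aldoc CPM and by the astrocyte sum, 187 to 2119.6 CPM. The level of Aldoc in mural cells themselves was not tested. The FPKM tables of the sorts were made separately.

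**Figure D4:**
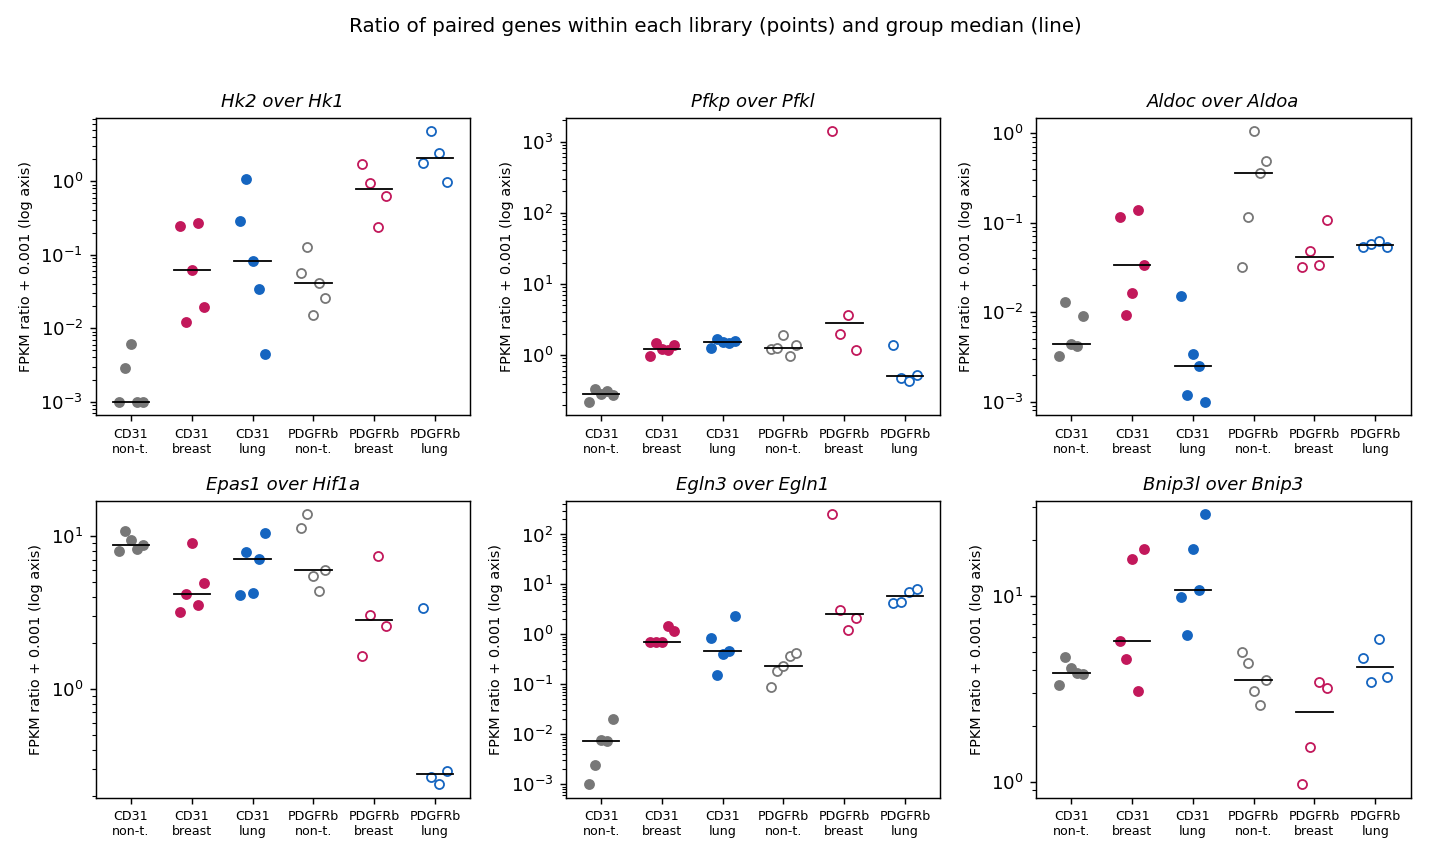
Ratio of FPKM of paired genes within each library (y axis, ratio + 0.001, log axis) by group (x axis), with points for libraries and lines for medians. The Pfkp to Pfkl ratio is at most 0.331 in the CD31 non-tumor libraries and at least 0.970 in the CD31 BrM libraries, and the Epas1 to Hif1a ratio is lowest in 3 PDGFRb lung BrM libraries.

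The last question was whether the response to metastasis differed between the sorts, tested as the difference of the 2 changes in a fit of all 6 groups. For breast BrM 6 of 38 members were called, where 5.93% of all genes were (2.35% higher, 3.57% lower). The change in PDGFRb minus that in CD31 was positive for Ldha (log2 difference 1.69, SE 0.25, adjusted p = 8.54e-05), Bnip3 (log2 difference 2.48, SE 0.60, adjusted p = 0.012) and Bnip3l (log2 difference 1.04, SE 0.31, adjusted p = 0.0476), and negative for Aldoc (log2 difference -5.69, SE 1.49, adjusted p = 0.0203), Egln3 (log2 difference -3.53, SE 0.78, adjusted p = 0.00557) and Car9. For lung BrM 8 were called, where 10.1% of all genes were (3.77% higher, 6.35% lower): Ndrg1 (log2 difference 3.71, SE 0.84, adjusted p = 0.00404), Bnip3 (log2 difference 2.51, SE 0.60, adjusted p = 0.00696), Ldha (1.59), Bnip3l (0.97) and Eno1 (0.84) were positive, and Pfkp (-2.09), Hk1 (-1.13) and Car9 negative. Car9 rests on the 0 counts of the CD31 non-tumor group, so no size is given. The Egln3 difference rests on 0 to 14 counts in each library of that group. In breast BrM the lowest and the highest Egln3 level were both higher in the PDGFRb than in the CD31 libraries. Hif1a, Epas1 and Hif3a were not called in either difference by edgeR, while DESeq2 called Epas1 in lung. Bnip3l lost its call without any 1 of 15 of the 19 libraries in each, as Hk1 and Eno1 did without any 1 of 10 in lung. Beside these values, the mural marker sum of 3 PDGFRb lung BrM libraries was at 327 to 532 CPM, and with mouse 51435 as the only lung library Ldha alone was called. With the mouse as a replicate block 2 breast members (Ldha and Egln3) were called, where 1.77% of all genes tested were. In lung 5 were called (Ldha, Bnip3, Ndrg1, Pfkp and Epas1), where 4.4% of all genes tested were. The blocked log2 difference of Aldoc in breast was -4.99 (adjusted p = 0.17). With mouse 54135 placed by its label 0 breast members and 1 lung member (Hk1) were called, where 0.253% and 1.78% of all genes tested were. The median difference over all genes was -0.27 in breast and -0.04 in lung.

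**Figure D5:**
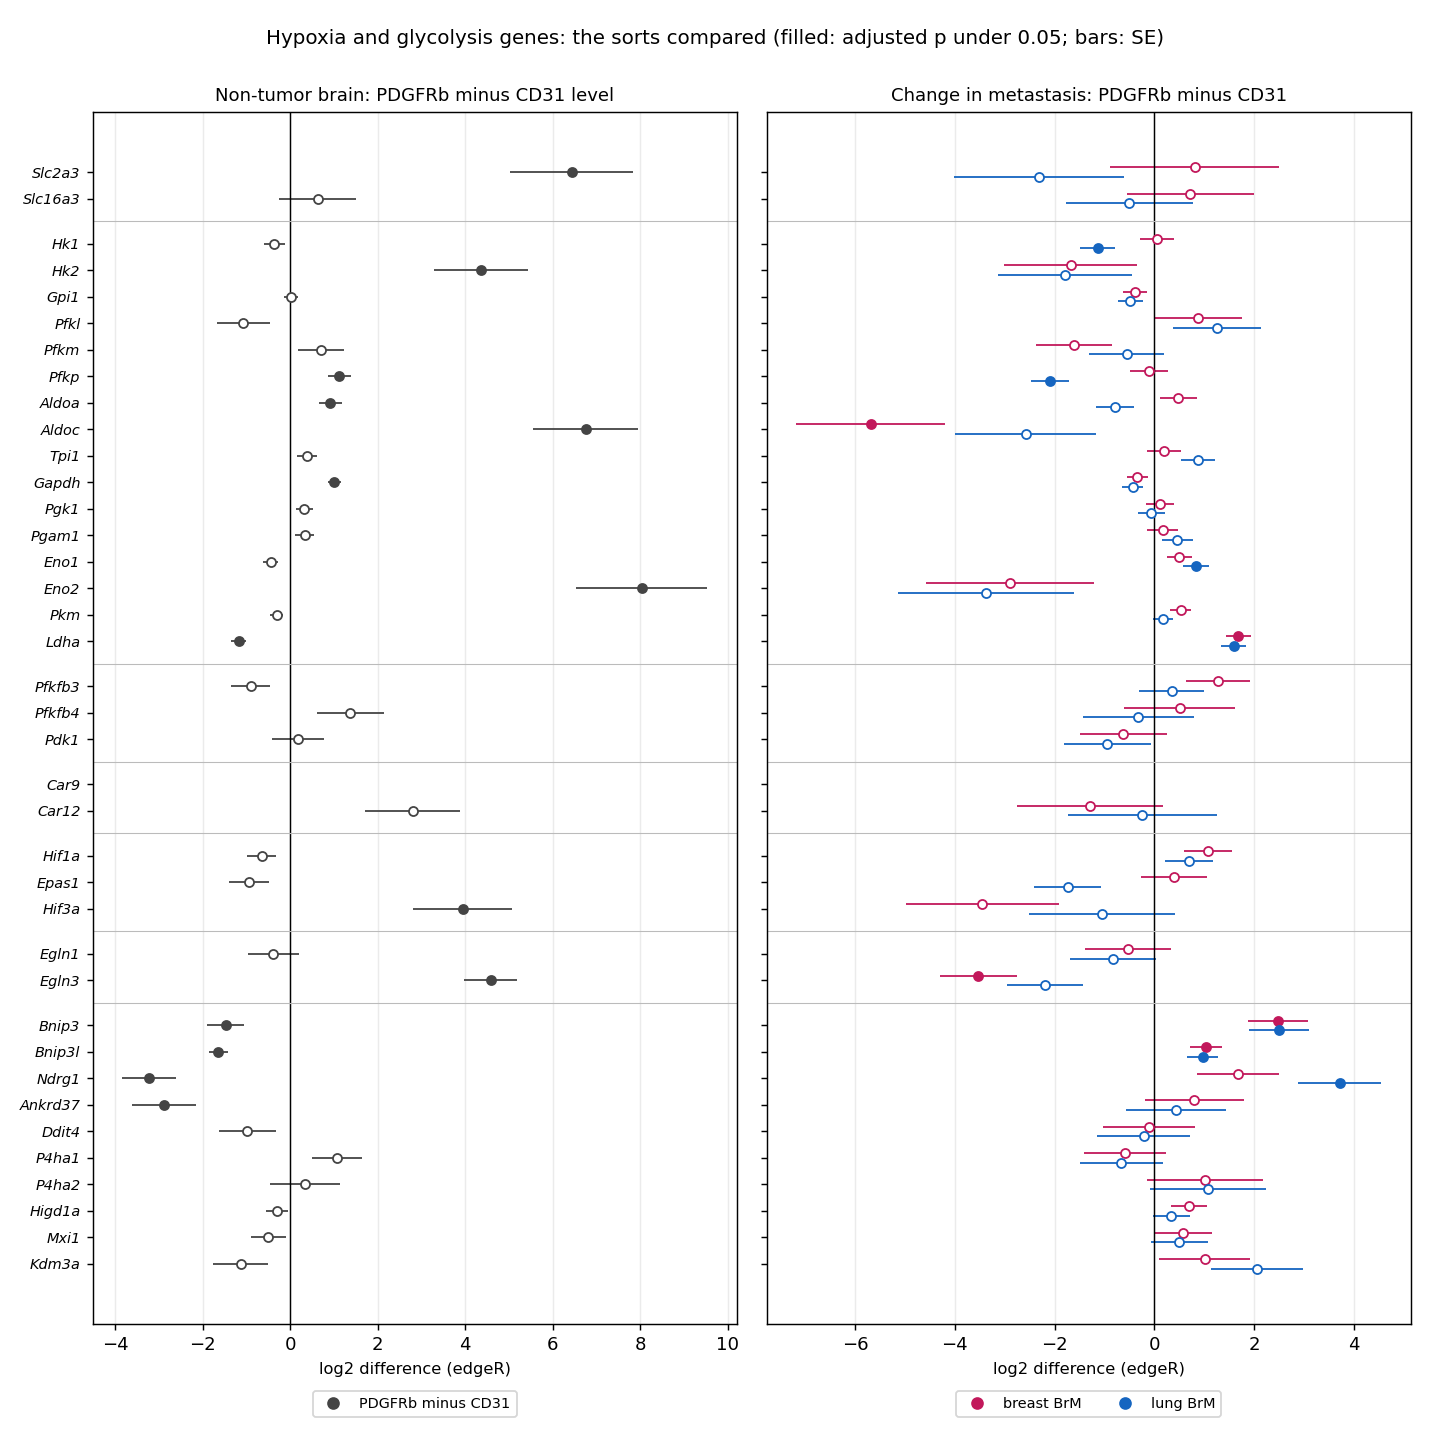
Log2 difference (x axis, edgeR) of each member (y axis) between the PDGFRb and the CD31 sort in non-tumor brain (left) and between the changes of the sorts in breast and lung BrM (right). Bars are SE and filled points passed adjusted p under 0.05. On the right Ldha, Bnip3 and Bnip3l are filled above 0 in both origins and Aldoc and Egln3 are filled below 0 in breast BrM. Car9 is not drawn.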

How the data were processed

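Per the labels' protocols, RNA of sorted cells was amplified with a SMART-Seq HT kit and sequenced from Nextera XT libraries, without strand marking or molecular identifiers. Per the submitters' processing notes, the mouse build was mm10 and the tools were limma 3.50.3, edgeR 3.36.0, RSEM 1.3.3 and STAR 2.7.9a, and the annotation release is not given in the sources used here. The authors deposited expected counts per gene for the 28 libraries, and log2 values and FPKM in a separate table for each sort.

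Expected counts were rounded and fitted over all genes with edgeR 4.0.16 in R 4.3.3 (TMM scaling, filterByExpr, robust quasi-likelihood test), 1 fit for each sort and 1 for all 6 groups. Adjusted p-values are Benjamini-Hochberg values over all genes tested, called under 0.05, and the SE is the log2 change over the root of its F value. The fits were run on simulated counts with the same spread for every gene and 200 changed genes. At a 2-fold change 76 were recovered for CD31 breast BrM, 62 for PDGFRb lung BrM and 3 for the lung difference between sorts. At a 4-fold change 200, 200 and 168 were recovered. The changed genes were drawn from well-counted ones, and no simulated library stood apart from its group. These shares therefore need not hold for members with low counts or a wide spread. Alternatives used DESeq2 1.42.0, RLE scaling, no filter on low counts, limma 3.58.1 on the deposited log2 values, the date in the column names as a covariate, mouse 54135 by its label, the mouse as a block, and leaving out each library. Within-library ratios and levels between genes used the authors' FPKM, which 38 of 38 members had. Floors of 3 counts and 95% counting intervals cover counting error only.

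Of the 15 mouse labels 13 occur in both sorts, and a shared label was taken to name the same mouse or, for the 2 labels with a pair of numbers, the same pool. Of those 13 pairs 3 deviated together with a correlation above 0.1 (range -0.12 to 0.33). Mouse numbers in the titles mark the libraries of a group as separate mice or pools.

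Every library's value is given by rule for the 3 HIF subunits and for the 4 called members of largest log2 change (2 where origins or changes are compared) whose mean log2 CPM reached 3. Values of further members were chosen after they were seen. In each comparison with non-tumor brain the 3 called pathway genes of largest change were selected likewise, some of which are not reported here. The members and lists were chosen with earlier results of these data known.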

Additional observations from a re-analysis of the deposited data

Results flagged for a closer look

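In 55 groups of 4 or 5 libraries examined for the members given by library, 2 held a library far from the rest of its group, and chance alone flags about 1 in 20 groups. Car12 was lowest in the PDGFRb non-tumor library of mouse 53680, at 0.695 CPM against 3.86 to 6.43 CPM in the other 4. Epas1 was highest in the PDGFRb lung BrM library of mouse 51435, at 416.9 CPM against 33.6 to 46.0 CPM in the other 3.

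The other results given here are differences between groups that passed their own test (edgeR). Between lung and breast BrM in the CD31 sort the log2 difference was -0.91 for Aldoa, -5.34 for Aldoc and -6.27 for Car12. In the PDGFRb sort it was -1.50 for Hk1, -2.38 for Pfkp, -2.21 for Aldoa, -5.24 for Car12 and 4.10 for Hif3a.

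The change in breast BrM differed between the sorts, PDGFRb minus CD31, by -5.69 for Aldoc, 1.69 for Ldha, -3.53 for Egln3, 2.48 for Bnip3 and 1.04 for Bnip3l. For lung BrM the difference was -1.13 for Hk1, -2.09 for Pfkp, 0.84 for Eno1, 1.59 for Ldha, 2.51 for Bnip3, 0.97 for Bnip3l and 3.71 for Ndrg1. The fitted values for Car9, -6.50 in breast and -5.66 in lung, depend on the prior count, because all CD31 non-tumor counts were 0. The breast value for Egln3 rests on 0 to 14 counts in each of those libraries.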

How the results depend on the processing

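Depth limits Slc2a3, Eno2 and Car9 in the CD31 sort, among others. The CD31 non-tumor libraries had 0 to 6 counts of Hk2, 0 to 14 of Egln3 and 1 to 32 of Car12. The sizes of the changes of these members against that group are therefore uncertain. The PDGFRb breast library of mouse 51950 had 7.11 M counts against 13.7 to 23.9 M in the other 3, yet Pfkl had 1 count there against 1061 to 5066 in the other PDGFRb libraries, and the cause was not tested. No date held both breast and lung BrM, so with date as a covariate the origins are compared through non-tumor libraries of shared dates. Of the single-member values under the alternatives 375 kept their side of the threshold, 65 fell short of it, 10 newly passed it and 2 reversed. A change of direction was counted as reversed only where a fit had called the member. Of the fits that left out 1 library only the lowest and the highest value were counted. The 2 that reversed were Aldoc with mouse 54135 placed by its label, at -1.12 in CD31 breast BrM and 0.61 in the breast difference between sorts. The cause of the other shifts below was not tested.

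With date as a covariate the members called were 14 in CD31 breast BrM, 8 in CD31 lung BrM, 0 between them, 3 in PDGFRb breast BrM, 3 in PDGFRb lung BrM and 1 between those, with 2291, 1458, 0, 115, 578 and 102 genes in all. DESeq2 called 6 members between the CD31 origins and 9 between the PDGFRb origins. Over all genes it called 872 and 2314 there, 3137 in PDGFRb breast BrM, 4483 in PDGFRb lung BrM and 1931 in the breast difference between sorts. Without a filter on low counts 3 members were called between the PDGFRb origins and 5 in the lung difference between sorts, where 2.73% and 4.52% of all genes tested were called.

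With mouse 54135 by its label the genes called were 2390 and 3000 in CD31 breast and lung BrM, 644 and 1816 in PDGFRb breast and lung BrM, 0 between the non-tumor sorts, and 47 and 330 in the breast and lung differences. Members called were 0 between the non-tumor sorts and 0 and 1 in those differences. With PDGFRb lung mouse 51435 alone, chosen after seeing the data, 2 members and 161 genes were called against non-tumor brain, 0 members against breast BrM and 1 in the lung difference. The replicate block by mouse left 2 breast and 5 lung members in the differences between sorts, with 328 and 817 genes, and 15 members and 3884 genes between the non-tumor sorts.

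Leaving out 1 library at a time gave 199 to 484 genes between the CD31 origins, 830 to 3289 in PDGFRb breast BrM and 1801 to 3103 in PDGFRb lung BrM. Between the PDGFRb origins it gave 349 to 2688 genes and 2 to 9 members, and in the lung difference 1445 to 2302 genes and 5 to 8 members. The highest values for PDGFRb breast BrM and between the PDGFRb origins were without mouse 51950. DESeq2's scaling moved the median of all genes by -0.12 in both PDGFRb comparisons with non-tumor brain and by 0.17 between the non-tumor sorts, and the deposited log2 values moved it by -0.56 in PDGFRb breast BrM.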
